A study of Rattus norvegicus with 72 samples.

Results

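The libraries described here are the 6 cortex RNA libraries labelled paternal and P9 (postnatal day 9), of 72 libraries in the series and 24 from cortex RNA. The low and high members were chosen by the measured level of a single row of the count table, NM_173010, the accession of mouse Ube3a. The rows of this rat table carry accessions of other species. Libraries under 20 CPM (the count divided by the column sum, per 1000000 counts) were called Ube3a-low and the others Ube3a-high, whatever their genotype label. This gave 3 low and 3 high libraries. The series holds hypothalamus and cortex of female rat pups at P2 and P9, with a Ube3a deletion inherited through either parent and litter-matched wild-type (WT) controls. The 6 libraries are 3 labelled WT and 3 labelled deletion, each from a litter with the paternal deletion per the labels; WT and deletion mean these labels throughout. The deleted part of the gene, the strain and any pooling of pups are not stated in those labels, and nothing says that the replicates came from separate litters, so the p-values measure the spread between these libraries.

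Ube3a encodes an E3 ubiquitin ligase, an enzyme that tags proteins with ubiquitin and so marks many of them for the proteasome. In mature neurons it is expressed mainly from the maternal allele, because a long antisense transcript silences the paternal copy, whereas glia and immature cells use both copies. Loss of the maternal copy causes Angelman syndrome in humans. A paternal deletion is therefore often used as a comparison in which the neuronal supply is largely kept.

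NM_173010 split the libraries across the genotype labels. Among WT libraries it stood at 13.4 CPM in replicate 1 (14 counts), 60.3 CPM in replicate 2 (47 counts) and 88.4 CPM in replicate 3 (74 counts). Among deletion libraries it stood at 48.3 CPM in replicate 1 (37 counts), 12.2 CPM in replicate 2 (9 counts) and 15.8 CPM in replicate 3 (12 counts). WT replicate 1 thus stood with deletion replicates 2 and 3 in the low set, and deletion replicate 1 with WT replicates 2 and 3 in the high set. The members nearest to the threshold of 20 CPM were deletion replicate 3 on the low side and deletion replicate 1 on the high side. Exact Poisson 95% intervals, which cover counting error only, ran from 8.14 to 27.5 CPM for deletion replicate 3 and from 34.0 to 66.6 CPM for deletion replicate 1. The highest upper bound in the low set was 27.5 CPM and the lowest lower bound in the high set was 34.0 CPM, so no interval of one set reached one of the other. These values chose the libraries and are no result.

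**Figure D1:**
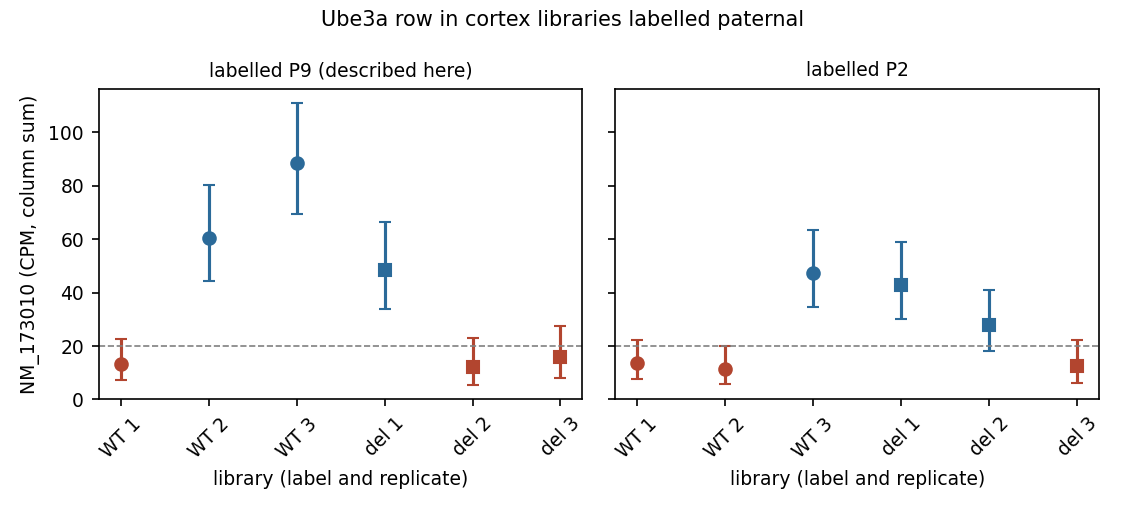
NM_173010 in CPM on the column sum for each cortex library labelled paternal, at P9 (left) and at P2 (right). Circles are WT and squares deletion labels, bars are exact Poisson 95% intervals, red is under and blue at or over the dashed line at 20 CPM. At P9 the low set lies between 12.2 and 15.8 CPM and the high set between 48.3 and 88.4 CPM, with both labels in each set.

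Set against the label, 4 of 6 libraries were where a lower level in deletion would place them: 2 deletion libraries were low and 2 WT libraries high. The remaining pair, WT replicate 1 and deletion replicate 1, was the other way round. No test is given, since the level made the sets, and Fisher's exact test with 3 against 3 libraries cannot give a p under 0.1. By label, NM_173010 averaged 54.1 ± 37.9 CPM in WT and 25.4 ± 19.9 CPM in deletion (SD, n = 3 each), so the label means differed by less than the WT standard deviation. At P2 in cortex labelled paternal the same threshold left 1 deletion and 2 WT libraries low, and 2 of 6 libraries were where a lower level in deletion would place them. In hypothalamus labelled paternal, by contrast, each of 3 deletion libraries was under 20 CPM at P2 (6.71 to 10.1) and at P9 (2.28 to 7.18), and no WT library was (35.4 to 58.0 over both ages). In cortex labelled maternal, the 3 deletion libraries at P9 were low, as was 1 of 3 WT libraries (replicate 3, 5.77 CPM), and no library at P2 was. That WT library is 1 of 4 RNA libraries with few counts of an accession described below, and the other WT libraries of its group stood at 25.5 and 33.0 CPM. In hypothalamus labelled maternal no library was under 20 CPM, and the labels overlapped at P2 (29.8 to 62.8 CPM in deletion, 26.0 to 83.4 in WT) and at P9 (22.9 to 46.2 in deletion, 26.4 to 48.9 in WT). By this row, then, hypothalamus was low with the deletion labelled paternal and not with that labelled maternal, whereas the background above would place the lower level with the maternal deletion. Whether the parental labels hold was not tested. In such bulk tissue, fewer cells of a type and less RNA per cell cannot be told apart.

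Libraries of this set stand apart from their labels in other ways, which bear on the comparisons that follow. On the first principal component of the 24 cortex libraries (46.8% of variance), the 6 libraries lay between 37.9 and 61.8. Libraries labelled maternal lay between 0.875 and 14.4 at P2 and between -53.5 and -27.6 at P9, and those labelled paternal at P2 between -22.2 and -6.49. The 6 libraries labelled paternal P9 thus lay on the side of the maternal P2 libraries but beyond their range. Depth also differed by parental label. Cortex libraries labelled paternal held 735159 to 1041098 counts at P9 and 878649 to 1102194 at P2. Those labelled maternal held 1669200 to 1953233 at P2 and 1943980 to 2498255 at P9. Whether depth bears on this component was not tested. Across accessions, the P9 minus P2 difference with the label paternal ran against that with the label maternal (r = -0.842 over 8379 accessions, which are not independent replicates). Whether age labels were exchanged was not tested. WT replicate 2, a high library, differed from the other 5 in a few accessions singled out after their values were seen. NR_001463 had 17 counts there and 6972 to 9248 in the other 5, whereas NM_011419 and NM_012008 had 31 and 182 counts there and 0 in the other 5. Of the 48 RNA libraries, 4 had under 100 counts of NR_001463 and the other 44 had at least 775. All 4 are labelled WT: besides WT replicate 2 here, they are replicate 3 of cortex maternal P9 (2 counts), of hypothalamus maternal P9 (9 counts) and of hypothalamus paternal P2 (19 counts). Whether the labels of these 4 libraries hold, sex included, was not tested. Values without them are given for the accessions apart and for the labelled contrasts, but not for the correlations or principal components.

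Depth and RNA class did not separate the low from the high set. Low libraries held 735159 to 1041098 counts and high libraries 766254 to 836960, so the ranges overlapped. Noncoding accessions (NR_) took 9.67% ± 1.20 of counts in low and 9.42% ± 0.276 in high libraries (SD, n = 3 each), a smaller difference than the spread. The number of accessions with any count was 18225 to 19648 in low and 18629 to 19059 in high libraries.

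The low and high sets did not form separate groups over all accessions. With NM_173010 left out, log2 CPM correlated at a mean r of 0.950 between 2 low libraries (3 pairs), 0.945 between 2 high libraries (3 pairs) and 0.949 between a low and a high library (9 pairs). Libraries of the same set were thus no more alike than libraries of different sets. The same held for the genotype label, with a mean r of 0.947 between 2 WT libraries, 0.949 between 2 deletion libraries and 0.949 between a WT and a deletion library. On each of the 5 principal components of the 6 libraries, low and high libraries overlapped, and so did WT and deletion libraries. The libraries farthest from the rest on the first component (28.3% of variance) were WT replicate 3, a high library at 31.0, and deletion replicate 2, a low library at 24.9, which stood on the same side.

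**Figure D2:**
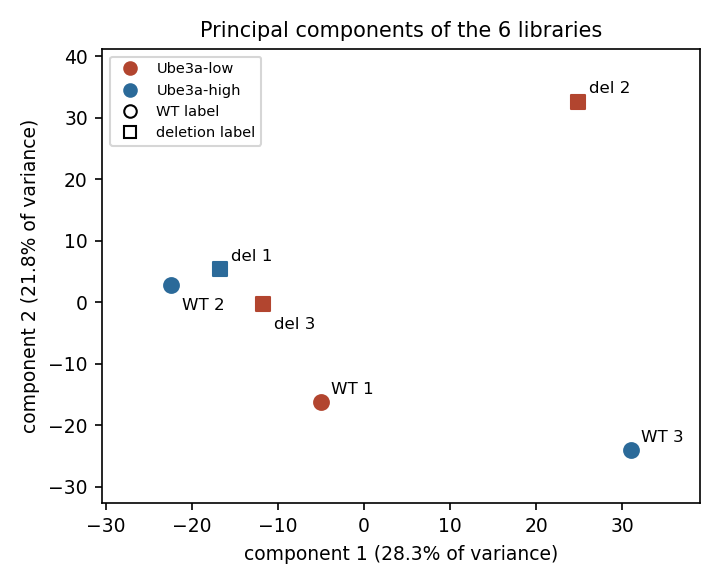
The first and second principal components of log2 CPM in the 6 libraries, NM_173010 left out (28.3% and 21.8% of variance). Red is Ube3a-low, blue Ube3a-high, circles are WT and squares deletion labels, and neither colour nor shape separates along either axis.

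The question put to the split was which other accessions differ between low and high libraries. Because the sets were made from a measured level, these differences are a description and were given no test. An accession was called apart where its 3 low and 3 high values did not overlap and the means differed at least 2-fold, on log2 CPM with TMM scaling (which adjusts library sizes for composition) and a prior count of 2. Of 8379 accessions besides NM_173010, 79 (0.943%) were apart, 33 (0.394%) higher and 46 (0.549%) lower in the low libraries. The same description by genotype label in the same libraries set 90 (1.07%) apart, 47 (0.561%) higher and 43 (0.513%) lower in deletion. Without the size limit, 609 accessions (7.27%) did not overlap between low and high, 339 (4.05%) higher and 270 (3.22%) lower in low, and 752 (8.97%) between deletion and WT. The shares set apart by Ube3a level and by label were thus close in the 6 libraries. Their order was reversed without WT replicate 3, with 212 apart between low and high and 150 between deletion and WT. The label fit held 9719 accessions in that setting. The median low minus high difference over all 8379 was -0.001 on the log2 scale, and the SD across accessions was 0.358, against 0.370 for deletion minus WT.

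Accessions that stood apart were mostly thinly counted. Of the 79, 60 had a mean under 10 counts over the 6 libraries (2.30% of the 2611 accessions at that level), 18 had 10 to under 50 (0.546% of 3297), 1 had 50 to under 200 (0.0603% of 1659) and none of the 812 accessions with 200 or more was apart. The label gave nearly the same shares, at 2.64%, 0.576%, 0.0603% and 0.123%. The median SD between libraries of a set, on the log2 scale, was 0.530 under 10 counts and 0.190 at 200 or more. Among accessions with 200 or more counts, differences of 2-fold between the sets thus did not occur without overlap of the libraries. By kind, 69 of 7522 NM_ accessions (0.917%) and 10 of 857 NR_ accessions (1.17%) were apart.

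**Figure D3:**
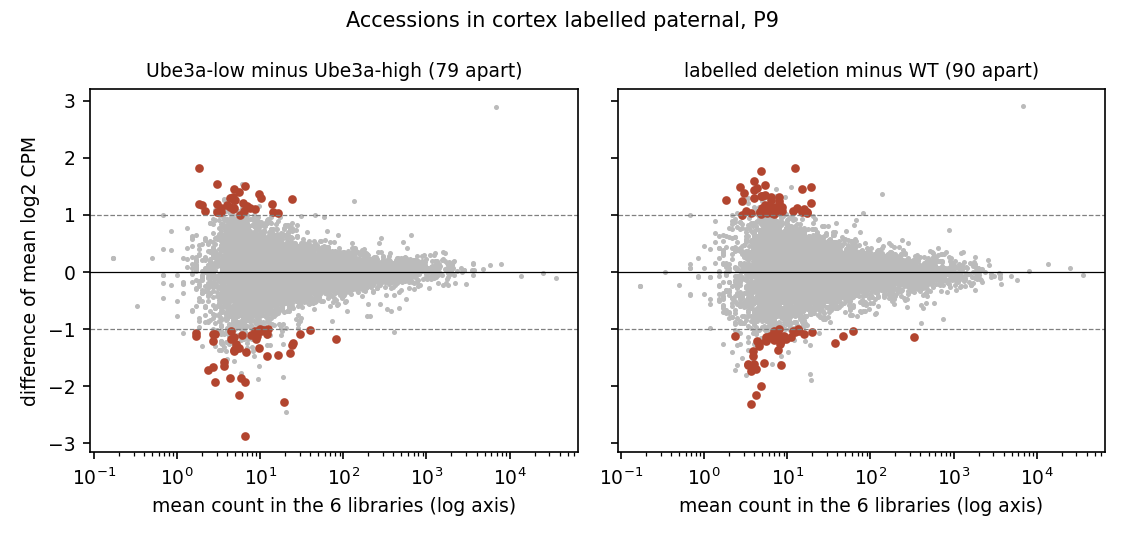
Difference of mean log2 CPM against mean count (log axis) for each accession but NM_173010, low minus high (left) and labelled deletion minus WT (right). Red points are apart (no overlap and at least 2-fold, dashed lines), 79 on the left and 90 on the right, and most of them lie at few counts in both panels.

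The accessions could not be given gene names. Of 184444 accessions in the table, 0 matched the RefSeq rat table, and 0 accessions of the 282 symbols in 21 gene lists (imprinted domain of Ube3a, reported UBE3A substrates, proteasome, synapse, activity, maturation and cell type markers) were counted under a rat accession. No pathway or cell type could therefore be read from these rows, and cortex was not checked against its markers. At most a pair of accessions in each direction is named for a comparison, those with the largest difference.

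NM_178768 had the largest difference of the 79, lower in the low libraries. It had 1, 0 and 0 counts in the low libraries (WT replicate 1, deletion replicates 2 and 3) and 4, 28 and 6 counts in the high libraries (WT replicates 2 and 3, deletion replicate 1). The high value rested mainly on WT replicate 3. The low minus high difference of NM_178768 was -2.87 (SE 0.80), or -2.13 without WT replicate 3, and at P2 it was 0.53 (SE 1.49), with 24 counts in WT replicate 3 and none in the other high libraries.

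NM_010307 was also lower in the low libraries. It had 10, 1 and 9 counts in the low and 37, 48 and 12 counts in the high libraries, in the same order. The low and high libraries nearest to each other, deletion replicates 3 and 1, stood at 11.3 and 14.7 CPM after TMM scaling. The low minus high difference of NM_010307 was -2.28 (SE 0.90), with -2.28 within WT and -1.44 within deletion libraries, and -1.59 without deletion replicate 2. At P2 its difference was -2.48 (SE 1.32), but a low library, WT replicate 2 with 28.9 CPM, stood above 2 of the 3 high libraries (28.6 and 23.2 CPM).

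Accessions higher in the low libraries rested on fewer counts. NM_175035 had 5, 1 and 5 counts in the low libraries and 0 in each high library. Against a floor of 3 counts over the high set, its CPM ratio was 3.44, a value that does not cover counting error. NM_008027 had 4, 4 and 7 counts in the low and 1, 0 and 2 in the high libraries, a low minus high difference of 1.53 (SE 0.51). Both sets of NM_008027 thus lay within a few counts of each other. At P2 the sets overlapped for NM_175035 (difference 0.21, SE 0.63) and for NM_008027 (0.78, SE 0.50).

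In the labelled comparison none of these was called. The quasi-likelihood F-test of edgeR, fitted over all 24 cortex libraries and adjusted by the Benjamini-Hochberg method, called 0 of 8380 accessions (0%) between deletion and WT in the 6 libraries, with 495 (5.91%) at unadjusted p under 0.05 and a lowest adjusted p of 0.220. DESeq2 called 1. The label log2 fold change was -2.23 (SE 2.39) for NM_178768, -1.93 (SE 1.04) for NM_010307, 0.48 (SE 1.25) for NM_175035 and 1.57 (SE 0.76) for NM_008027, and their Benjamini-Hochberg adjusted p from edgeR ran from 0.839 to 0.994. Without WT replicate 2 the same edgeR test called 13 of 9646 accessions, 3 higher and 10 lower in deletion. Without WT replicate 3 it called 1 of 9719, and none of the accessions called in either setting was among the 79. Without WT replicate 2, 145 accessions were apart between low and high, 60 of them among the 79, and 212 between deletion and WT. The label fit held 9646 accessions there and 8380 in the main setting, so these counts are not out of the same total as 79 and 90.

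Libraries labelled P2 gave a look at the same accessions in samples that the split had not used. There the same 20 CPM rule gave 3 low libraries (WT replicates 1 and 2, deletion replicate 3) and 3 high libraries, and again 79 of 8379 accessions (0.943%) were apart, 26 (0.310%) higher and 53 (0.633%) lower in low. Of the 46 accessions lower in low at P9, 30 (65.2%) were also lower on average at P2, where 51.1% of all 8379 were. Of the 33 higher at P9, 21 (63.6%) were higher at P2, where 48.9% of all were. The medians at P2 were small, -0.198 for the 46 and 0.0664 for the 33, against -1.22 and 1.18 at P9. Over all accessions the low minus high differences at P9 and P2 had r = 0.003, a description across accessions that are not independent.

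**Figure D4:**
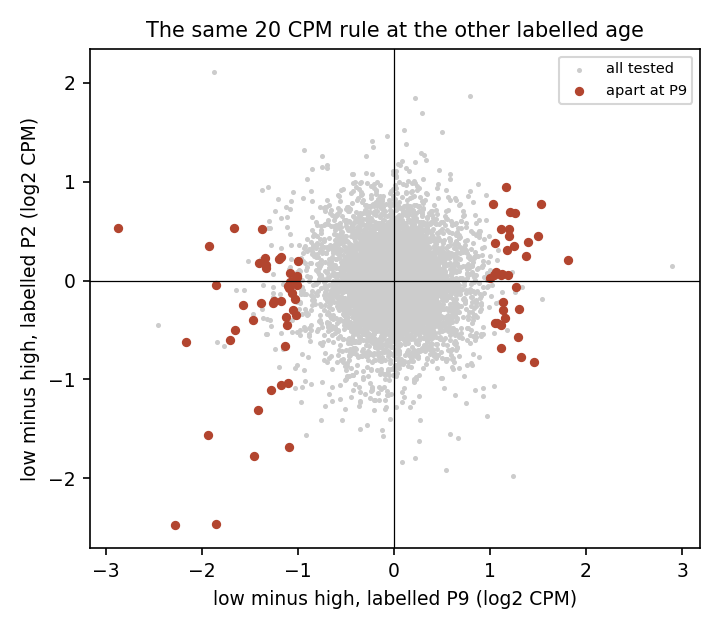
Low minus high difference of mean log2 CPM at P9 (horizontal) and, in other libraries, at P2 (vertical), grey for all 8379 accessions and red for the 79 apart at P9. The red points on the left reach further down than up, and 5 of them were apart at both ages.

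At both ages 5 accessions were apart, each lower in the low libraries, which is 6.33% of the 79 apart at P9 and 6.33% of the 79 apart at P2. Over all 8379 accessions, 53 (0.633%) were apart and lower in low at P2. The 5 accessions had means of 5.83 to 24.2 counts, and they include the pair below that may be rows of Ube3a. Without WT replicate 2 at P9, 3 of the 5 were apart. Of these 5, the pair with the largest difference at P2 was NM_001007318 and NM_011668, chosen after the values were seen. NM_001007318 had 2, 1 and 3 counts in the low and 11, 9 and 9 in the high libraries at P9 (difference -1.85, SE 0.28). At P2 NM_001007318 had 2, 0 and 0 counts in the low and 10, 8 and 6 in the high libraries (difference -2.47, SE 0.45). NM_001007318 was picked for being apart at both ages, so that separation is no result. Its P9 difference was -2.03 within WT and -1.71 within deletion labels, a direction that the absence of overlap fixes. NM_011668 had 5, 3 and 0 counts in the low and 11, 9 and 11 in the high libraries at P9 (difference -1.93, SE 0.68, or -1.27 without deletion replicate 3). At P2 NM_011668 had 2, 1 and 2 against 9, 6 and 6 counts (difference -1.57, SE 0.26). Neither accession is paired with a gene in the table used here. Either could be a further row of Ube3a, which would have followed the split by construction, so no weight is given to them as other genes. Without the pair, 77 accessions (0.919%) were apart, 44 of them lower in low.

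**Figure D5:**
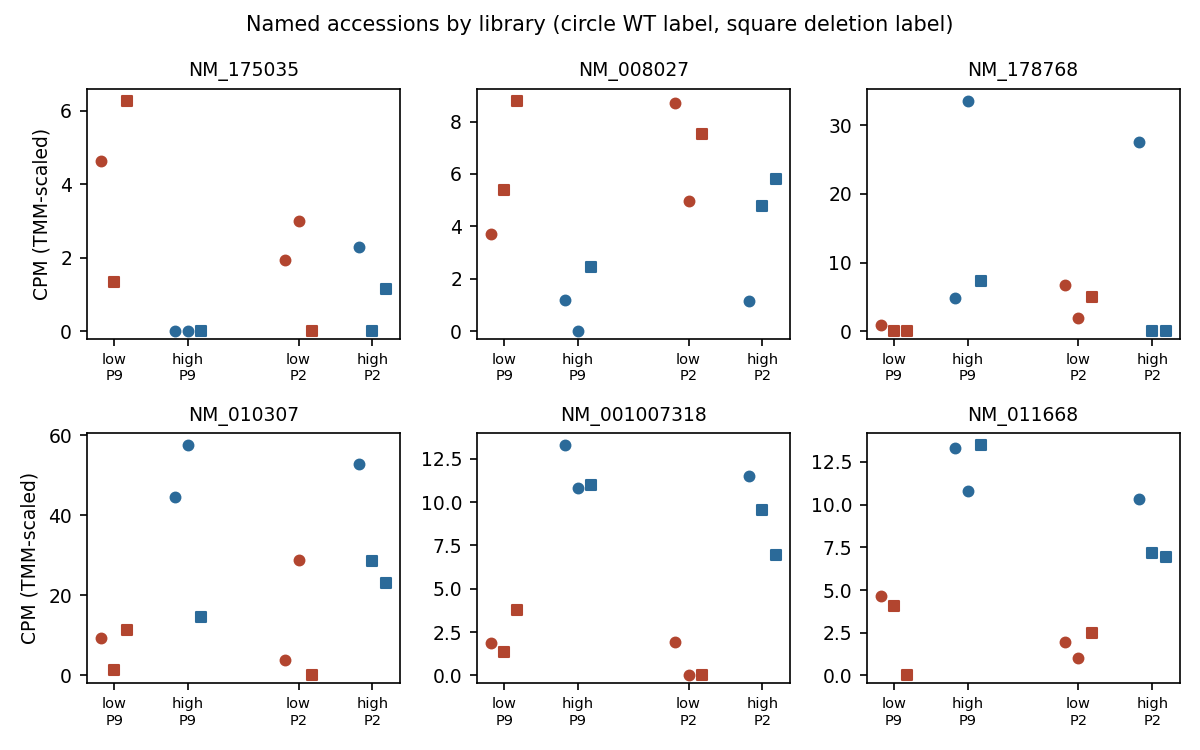
TMM-scaled CPM of the 6 named accessions in each cortex library labelled paternal, by set and labelled age (red Ube3a-low, blue Ube3a-high, circles WT, squares deletion). NM_001007318 and NM_011668 were picked for separating low from high at both ages. The other 4 were picked by their P9 difference alone, and their sets overlap at P2.

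The same pair was looked at in libraries outside the split. In hypothalamus labelled paternal, NM_011668 stood at 13.3 to 18 CPM in WT and 0.980 to 3.36 CPM in deletion at P2, and at 4 to 14.6 CPM in WT and 0 to 3.49 CPM in deletion at P9 (n = 3 each). At each age the highest deletion value was below the lowest WT value. At P9 this rested on 4 counts in WT replicate 2 against 3 counts in deletion replicate 3. NM_001007318 overlapped between the labels at P2 (2.92 to 9.67 CPM in WT, 2.02 to 6.86 CPM in deletion) and did not at P9 (6.01 to 14 CPM in WT, 0 to 3.49 CPM in deletion). Neither accession passed the filter on low counts for the edgeR fit in hypothalamus, and both were looked at after their cortex values were seen, so these values are a description with no test. The share of all hypothalamus accessions that do not overlap between the labels is not given. Either accession could be a further row of Ube3a, so these values are no result about another gene. WT replicate 3 at P2 is 1 of the libraries with few counts of NR_001463. Leaving it out could not make the labels overlap for NM_011668, since fewer values cannot widen a range. The mean deletion minus WT difference of NM_011668 over both ages was -10.4 CPM, and -9.69 CPM without that library. In cortex labelled paternal at P9 the label log2 fold change of NM_011668 was -0.63 (SE 0.69, Benjamini-Hochberg adjusted p = 0.963 from edgeR). Whether the tissues differ in this was not tested.

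Of the 79 accessions, none of those tested was called for deletion in the 7 other labelled contrasts (edgeR, Benjamini-Hochberg adjusted). In cortex, where all 79 were tested, 4 (5.06%) had an unadjusted p under 0.05 with the label paternal at P2 (3.28% of all accessions), 5 (6.33%) with the label maternal at P2 (3.22%) and 1 (1.27%) with the label maternal at P9 (9.36%). In hypothalamus, where the filter on low counts kept 31 of them, 2 (6.45%) had an unadjusted p under 0.05 with the label paternal at P9 (0.856% of all), 1 (3.23%) at P2 (2.11%), 1 (3.23%) with the label maternal at P2 (1.66%) and 0 at P9 (2.95%). Calls over all accessions in these contrasts numbered 0 of 8380 (0%) in cortex and, in hypothalamus, 1 of 5840 (0.0171%) at each age with the label paternal, which was NM_173010. Without WT replicate 3 the contrast of cortex labelled maternal at P9 went from 0 to 321 calls of 8090 (3.97%), 12 higher and 309 lower in deletion, and 0 of the 62 members tested were among them. Without the WT libraries with few counts of NR_001463, hypothalamus maternal P9 gave 0 calls and hypothalamus paternal P2 gave 1, NM_173010. The 48 members that did not pass the hypothalamus filter, NM_011668 and NM_001007318 included, had no edgeR test there. With few counts in most members, the absence of calls does not show that they were unchanged. Low minus high differences also did not follow the age difference of cortex labelled maternal (r = 0.010 over 8379 accessions), whereas deletion minus WT had r = -0.181 with it.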

How the data were processed

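RNA was sequenced after rRNA depletion with a directional kit (per the labels). STAR and the builds rn6 and Rnor_6.0 are named in the submitters' processing notes; for the read counter, annotation and strand setting nothing was given in the sources used. The authors deposited raw whole-number counts per RefSeq accession, with no normalization. The methylation tables were not used here. Samples were grouped by their labels and replicate numbers follow record order. 0 per-sample columns were left unmapped. The members, lists and tests were chosen with earlier results of these data known.

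In R 4.3.3, the 24 cortex libraries (and the 24 of hypothalamus) were fitted in edgeR 4.0.16 with limma 3.58.1 (TMM, filterByExpr, 1 mean for each of 8 groups, robust quasi-likelihood F-test, 16 residual degrees of freedom, Benjamini-Hochberg threshold 0.05), with DESeq2 1.42.0 as an alternative. The filter kept 8380 accessions in cortex. The common biological coefficient of variation was 13.3%. Low and high libraries were described on log2 CPM (prior count 2) with no test. A test of low against high was tried once and is not reported, because a measured level made the sets. An exact permutation test of named accessions in hypothalamus, run after their values were seen, is not reported either. The checks on libraries with few counts of NR_001463 and the scalings of the split against the label were chosen after the data were seen. The count test was tested on simulated data. No pair of the 6 libraries agreed within sampling noise (lowest chi-square per degree of freedom 1.56), and 0 tested accessions had counts within 10% of NM_173010 or of any of the 79. That check finds only rows with nearly equal counts. It cannot find a further row of the same gene that has fewer counts. Named accessions were the pair with the largest difference in each direction, since no gene names matched. Alternatives changed scaling, prior count, filter, fold, depth, tool and single libraries.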

Additional observations from a re-analysis of the deposited data

Results flagged for a closer look

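Over the 6 libraries, 5 measures were checked for a sample far from the others, and chance flags about 1 in 20. The total count of WT replicate 1 (1041098) was the highest, and its gap to the next library was 0.667 of the whole range. The other value restates what was already seen, since NR_001463 was picked for its level in WT replicate 2 and the chance rate does not apply to it. Its level there (21.8 CPM) was the lowest, with a gap of 0.767 of the range to the other 5 (8660 to 11300 CPM). Both libraries are WT, and they fell on opposite sides of the 20 CPM threshold.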

How the results depend on the processing

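No paired analysis was possible because the labels give no replicate numbers that groups share. The count of accessions apart between low and high (79) was 122 with a prior count of 0.5, 356 with no filter on low counts, 271 at 1.5-fold, and 145 to 212 with a library left out, where fewer values have to avoid overlap by construction. It was 79 with CPM on the column sum, 79 with DESeq2 size factors, 89 with the libraries thinned to 735159 counts, and 59 where at least 2-fold was required within each label. Counts rose likewise for the label, from 90 to between 150 and 212 with a library left out, 405 with no filter, 345 at 1.5-fold and 137 with a prior count of 0.5. The number of accessions in the label fit rose as well, from 8380 to between 9646 and 9787 with a library left out and 38269 with no filter. Counts in those settings are therefore not out of the same total as 79 and 90. A higher count there need not be a higher share of the accessions. The labelled deletion gave 0 to 13 calls with a library left out, 1 in DESeq2, 15 with no filter, 0 with the 6 libraries alone and 0 with RLE scaling. The cause of these calls was not tested. The order of both counts, 79 and 90, was reversed without WT replicate 3 (212 and 150). Each of the 6 named accessions kept its direction in its 12 alternatives, which the absence of overlap fixes for those that only leave out libraries, but sizes moved. With a prior count of 0.5 the differences were 3.42 for NM_175035, 2.36 for NM_008027, -4.33 for NM_178768, -2.26 for NM_001007318 and -2.68 for NM_011668. Members of the 79 that were tested gave 0 calls in the 7 other contrasts under each alternative run. In the main fit of those contrasts no accession besides NM_173010 was called, so the absence of calls is not particular to these members. Calls over all accessions under the alternatives are not given. The 4 libraries of 6 that matched the label did so under each scaling. Few counts limit what can be told of most of the 79.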
